A study of Homo sapiens with 63 samples.

Results

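Cytosolic ribosomal protein genes were followed across 63 RNA libraries of HEK293T cells. Members were the protein-coding genes of the autosomes and the X chromosome named RPSA, RPLP0, RPLP1, RPLP2, or RPL or RPS with a number and at most one of the letters A, X or L. They also needed a mean of at least 5 CPM (counts scaled to a common library size) over all libraries. The rule found 81 symbols, of which 79 passed, 32 of the small and 47 of the large subunit, among 58336 genes. RPL10L at 0 CPM and RPL3L at 0.331 CPM fell below the limit, and RPL39L at 6.40 CPM and RPS27L at 69.4 CPM lay closest above it. All 79 members also passed the filter on low counts before testing.

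Each human ribosome has a small subunit, which reads the mRNA, and a large subunit, which joins amino acids. Nearly every one of these proteins is present in a single copy per ribosome, so their genes are transcribed at high and matched levels in growing cells. Their mRNAs typically begin with a C and a run of pyrimidines, called a 5′ terminal oligopyrimidine tract, through which mTOR and LARP1 control translation and mRNA stability. The amount of such an mRNA is therefore not a measure of how much protein is made from it.

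HEK293T is an established human embryonic kidney line that carries the SV40 large T antigen, and all cells of the study ectopically expressed the Halo tag. Per the labels, a Halo-binding precursor of the acyl glucuronide of ibufenac or ibuprofen (Ht-Pre-AG-ibufenac, Ht-Pre-AG-ibuprofen) was given at 10 µM for 2 h, then washed out, and light was applied for 3 min at 365 nm and 5 mW/cm2. Acyl glucuronides are reactive drug metabolites. The 7 arms were the Ibufenac probe, Ibuprofen probe, Ibufenac photocaged, Ibuprofen photocaged, Ibufenac bolus, Ibuprofen bolus and DMSO, each at 6, 12 and 18 h with 3 libraries. That gives 9 libraries per arm and 21 groups. How a probe differs from a photocaged compound, which arms were lit and how much drug a bolus held are not stated in the labels. They do not say that replicates are separate cultures, so p-values measure only the spread between these libraries.

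The smallest library held 12.1 M counts, the largest 38.4 M and the median library 19.6 M. Protein-coding genes took 68.2% to 82.7% of a library and small noncoding RNAs 12.8% to 29.1%. These small noncoding RNAs were the annotated classes misc_RNA, snRNA, snoRNA, scaRNA and ribozyme, without long noncoding RNAs. Of 10 genes listed as markers of HEK293T, embryonic kidney or neuronal cells 9 averaged above 1 CPM over the libraries, while the kidney genes in it were the lowest, PAX2 at 0.15 CPM and LHX1 at 1.39 CPM. Of the other lists 6 of 6 blood, 4 of 5 hepatocyte, 3 of 5 fibroblast and 3 of 3 endothelial markers were below 1 CPM. The third Ibufenac bolus libraries at 6 h and at 18 h stood furthest from the others of their groups. The first of these had the highest mitochondrial share, 0.999%, and the lowest ribosomal protein share of all libraries, and results that rest on either are given without them too. In bulk RNA, fewer cells with a transcript and less of it per cell cannot be told apart.

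The start windows of 10 members show how the tract varies among the genes that the results turn on. Each is 15 bases before and 15 bases from the transcription start annotated by RefSeq on GRCh38.p14, on the strand of the gene. Capitals mark the unbroken run of C and T that begins with C at the start, and a window with no capitals has no such run.
RPL12: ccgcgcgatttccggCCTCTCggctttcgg
RPL26: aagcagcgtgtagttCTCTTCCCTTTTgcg
RPS27: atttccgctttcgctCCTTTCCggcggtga
RPS6: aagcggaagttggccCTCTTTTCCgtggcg
RPL36A: tttgcctcgcggtttCTTTCTTTCCgcgcc
RPLP1: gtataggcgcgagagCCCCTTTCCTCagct
RPL3: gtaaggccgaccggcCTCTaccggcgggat
RPS26: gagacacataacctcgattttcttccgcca
RPS27L: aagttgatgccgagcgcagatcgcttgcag
RPS28: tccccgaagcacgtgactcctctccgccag
The windows lie at chr9:127451392-127451421 (minus strand, RPL12), chr17:8383179-8383208 (minus, RPL26), chr1:153990747-153990776 (plus, RPS27), chr9:19380222-19380251 (minus, RPS6), chrX:101390996-101391025 (plus, RPL36A), chr15:69452803-69452832 (plus, RPLP1), chr22:39319609-39319638 (minus, RPL3), chr12:56041903-56041932 (plus, RPS26), chr15:63157463-63157492 (minus, RPS27L) and chr19:8321481-8321510 (plus, RPS28).

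A run was counted as a tract where a C at the annotated start was followed by at least 4 bases that are C or T, so at least 5 bases in all, read on the strand of the gene only. RefSeq start windows were matched for 63 members by symbol, and 16 had no entry. Of the matched members 46 (73.0%) had a tract, against 924 of 15251 other protein-coding genes (6.06%) and 1429 of 35116 starts in the table (4.07%). RPL26 and RPLP1 had the longest runs printed here, 12 and 11 bases, and RPL12 had 6. RPL3 had a run of 4 bases and was not counted, and RPS26, RPS28 and RPS27L had none at the annotated start. A missing run says only that these letters are not at that annotated base.

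Levels per length were compared in FPKM, the deposited unit that divides counts by transcript length and library size. RPS27, a zinc finger protein of the small subunit, averaged 3090 ± 314 FPKM (SD over the 21 group means), and RPL39, a small protein that lines the exit tunnel, averaged 3059 ± 231 FPKM. RPL41 and RPS2 were also among the highest, at 2592 and 2448 FPKM. The median of the 79 members was 1091 FPKM, with 1168 FPKM for the small and 1037 FPKM for the large subunit. Between 685 and 1426 FPKM lay the middle part of the members, the first to the last quartile bound. The order was almost continuous: only 5 of the 78 gaps between neighbours exceeded the sum of their SDs, so most neighbours did not differ beyond their spread.

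Both paralogs that are members were at the bottom. RPL39L, a copy of RPL39 best known from testis, averaged 8.51 ± 1.67 FPKM, and RPL39 was 360 times as high. RPS27L, a copy of RPS27 known as a p53 target, averaged 65.3 ± 17.1 FPKM, and RPS27 was 47.3 times as high. The level of RPS28, at the mRNA exit of the small subunit, was 78.4 ± 26.6 FPKM, with group means from 25.4 to 128 FPKM. RPL28 and RPS16 came next at 138 ± 27.7 and 236 ± 31.9 FPKM. FPKM depends on the transcript length used, and these levels are per length and not per copy of protein.

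The other members fixed by role sat within this range. Among the stalk proteins that recruit elongation factors, RPLP0 averaged 1460 FPKM, RPLP1 470 FPKM and RPLP2 415 FPKM. The ribosomal proteins that bind MDM2 when ribosome assembly fails, RPL5 and RPL11, averaged 1164 and 1214 FPKM. RPL22, which also binds RNAs outside the ribosome, had 273 FPKM, and RPL3, next to the peptidyl transferase centre, had 466 FPKM. RPS6, the substrate of S6 kinase, had 1549 FPKM, and RPSA, also known as the laminin receptor precursor, had 1647 FPKM. RPS3 at the mRNA entry had 1227 FPKM. RPS14 and RPS19, known from inherited and acquired anaemias, had 1091 and 1310 FPKM. RPS27A, made as a fusion with ubiquitin, had 835 FPKM. RPS4X, whose gene escapes X inactivation, had 986 FPKM. RPL10, which is needed for the subunits to join, had 1701 FPKM. RPL13A, known outside the ribosome from the GAIT complex, had 1061 FPKM, and RPL26, which also binds p53 mRNA, had 1980 FPKM. The rank correlation of the member order was at least 0.927 between any pair of groups, which describes 79 genes measured by the same protocol.

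**Figure D1:**
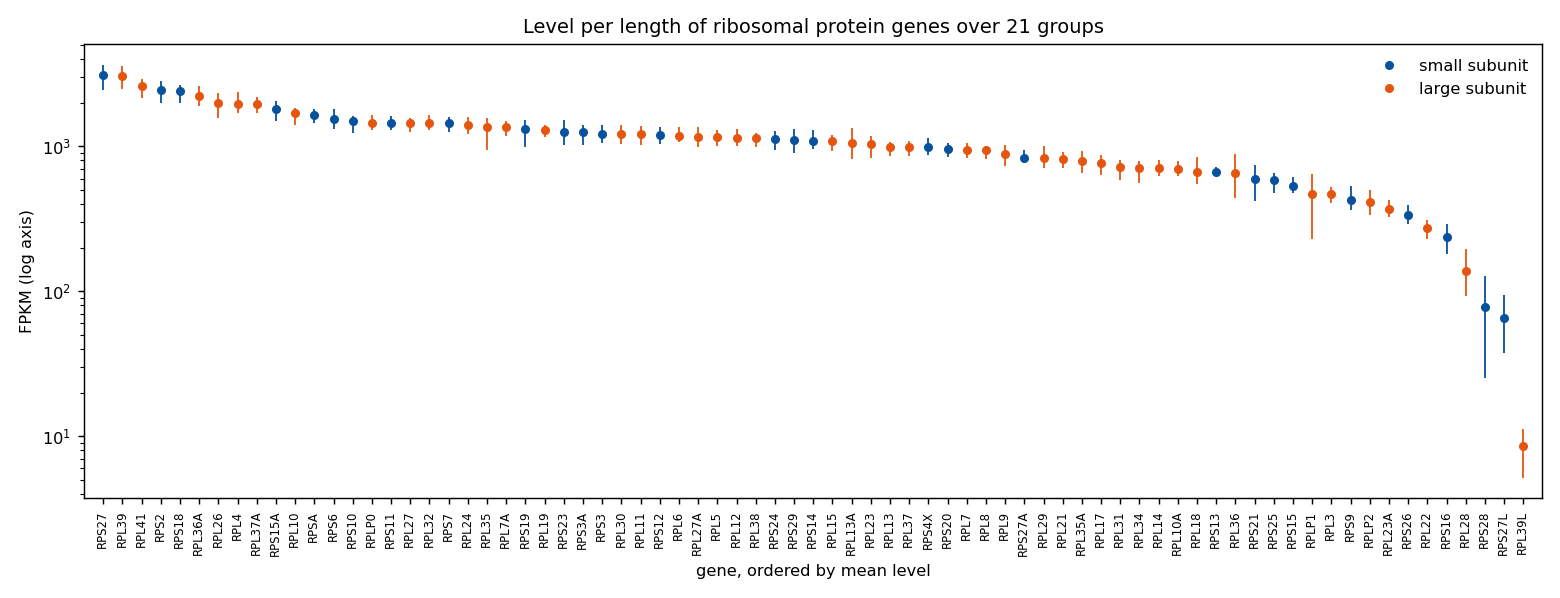
Mean level per length of the ribosomal protein genes reported here in FPKM, on a log axis, with bars from the lowest to the highest of the 21 group means. Most members sit between 685 and 1426 FPKM or close to it, and RPS28 (78.4), RPS27L (65.3) and RPL39L (8.51 FPKM) sit far below.

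Counts of the members added up to 5.08% to 7.25% of a library, with a median of 6.34%. In the probe arms the share of ibufenac libraries averaged 6.63 ± 0.163% at 6 h, 6.55 ± 0.352% at 12 h and 6.94 ± 0.107% at 18 h (SD, n = 3), and that of ibuprofen libraries 6.57 ± 0.243%, 6.46 ± 0.0824% and 6.84 ± 0.147%. DMSO libraries averaged 6.25 ± 0.0578%, 6.12 ± 0.0626% and 6.51 ± 0.663% at the same times. The 3 DMSO libraries at 18 h had 5.96%, 6.33% and 7.25%, and the last is the highest share of all 63 libraries. The lowest group was the Ibufenac bolus at 6 h, with 5.67 ± 0.513%, where the third library alone had 5.08%. The shares of the groups overlapped widely. Small noncoding RNAs, which are part of all counts, averaged 26.6% in DMSO at 18 h and 18.7% in DMSO at 12 h. Their bearing on the member shares was not tested.

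**Figure D2:**
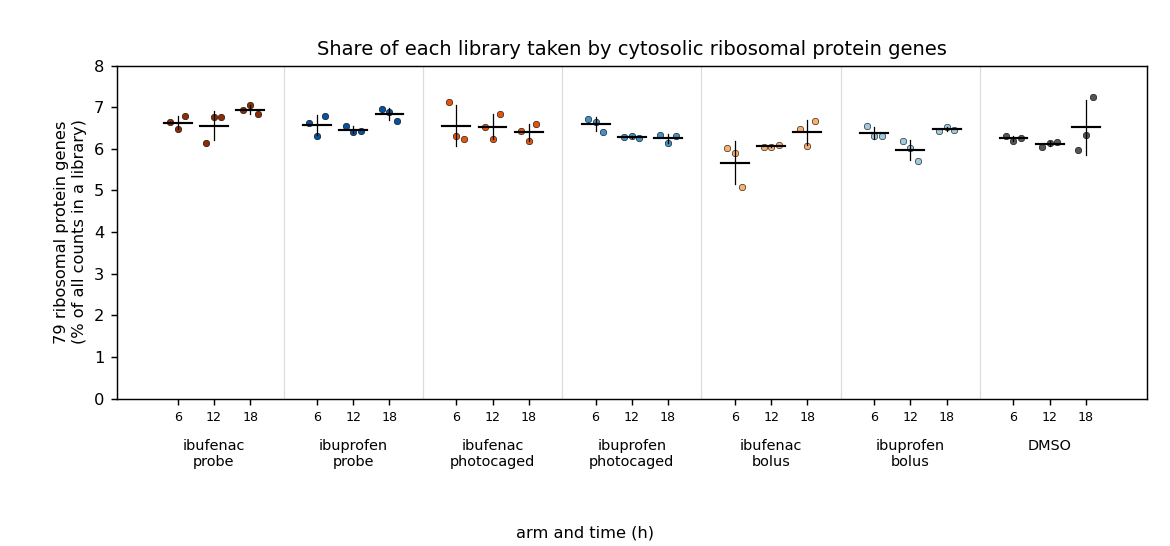
Share of all counts of a library taken by the 79 ribosomal protein genes, in percent, by arm and time in hours. Points are libraries, horizontal bars are group means and vertical lines are SDs (n = 3); the libraries lie between 5.08% and 7.25%, and the widest group is DMSO at 18 h with 5.96%, 6.33% and 7.25%.

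The first comparison asks whether a drug arm differed from DMSO when the 3 times are averaged, 9 libraries against 9. In the Ibufenac probe arm 14 members rose and none fell, which is 17.7% of the members, where 13.2% of all 19352 tested genes were called and 5.87% were higher (edgeR quasi-likelihood test, Benjamini-Hochberg adjusted p under 0.05). The member median was 0.10 on the log2 scale, and 76 of 79 members were above 0. Of the risers 5 belong to the small and 9 to the large subunit.

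RPL12, at the base of the stalk where elongation factors bind, had a lowest, median and highest value of 729, 861 and 957 CPM in the Ibufenac probe arm and 639, 736 and 877 CPM in DMSO. The ranges overlapped, but the probe median lay near the top of the DMSO range. At 12 h the probe libraries had 729, 818 and 918 CPM and the DMSO libraries 639, 687 and 681 CPM, without overlap. RPL12 rose by a log2 fold change of 0.23 ± 0.045 (SE; 1.18-fold, edgeR adjusted p = 0.000177). RPL39L rose most, by 0.50 ± 0.116 (1.41-fold, edgeR adjusted p = 0.00183), with 5.41, 6.91 and 12.9 CPM in the Ibufenac probe arm against 3.43, 5.55 and 8.86 CPM in DMSO. Its highest value came from a single 12 h library.

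RPL36A, which lies near the exit site for tRNA, had 898, 1120 and 1161 CPM in the Ibufenac probe arm, against 856, 938 and 1072 CPM in DMSO (lowest, median and highest). It rose by 0.20 ± 0.050 (edgeR adjusted p = 0.0031). RPS27 had 983, 1246 and 1353 CPM against 989, 1036 and 1340 CPM in DMSO, and rose by 0.20 ± 0.057 (edgeR adjusted p = 0.013). In both genes the median moved while the ends of the ranges stayed close. RPL26 rose by 0.19 ± 0.049 (edgeR adjusted p = 0.00493), with 1093, 1296 and 1419 CPM in the Ibufenac probe arm against 1013, 1083 and 1441 CPM in DMSO. RPL3 rose by 0.18 ± 0.053 (edgeR adjusted p = 0.0174), with 610, 731 and 760 CPM against 547, 611 and 835 CPM in DMSO. RPS18, RPL9, RPL10A, RPS3A, RPL4, RPL21 and RPS4X were among the others that rose, between 0.12 and 0.17; RPL9 and RPL21 lie outside the naming rule and were chosen after their values were seen.

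All 14 calls also held after trends of fold change with the GC content and length of transcripts were removed. In that fit 21 members were called, where 16.6% of all genes were called. The main count of 14 was sensitive to single libraries. It was 7 without the first DMSO library at 18 h and 29 without the third. It was 23 without Ibufenac probe 12 h 1, and 9 without any one of 5 others, namely DMSO 12 h 2 and DMSO 18 h 2, and Ibufenac probe 12 h 2, 12 h 3 and 18 h 2. The calls of RPL12, RPL36A, RPL39L and RPS27 were ended by none of the 27 alternatives.

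In the Ibuprofen probe arm 4 members rose and none fell, where 8.42% of all genes were called and 3.81% were higher. The member median was 0.06. RPS27 had 1058, 1254 and 1314 CPM in the Ibuprofen probe arm, against 989, 1036 and 1340 CPM in DMSO (lowest, median, highest), and rose by 0.18 ± 0.057 (edgeR adjusted p = 0.0432). RPS6 had 2069, 2321 and 2447 CPM against 1887, 2013 and 2494 CPM in DMSO and rose by 0.16 ± 0.047 (edgeR adjusted p = 0.0281). The ranges of both genes overlapped. RPS3A of the small subunit rose by 0.16 ± 0.047 (edgeR adjusted p = 0.0293) and RPL4, a wall protein of the exit tunnel, by 0.13 ± 0.041 (edgeR adjusted p = 0.0368). None of the 4 passed once GC and length trends were removed, and the count ran from 0 to 15 when single libraries were left out, with only 6 of 18 such counts within 1.5 times of the main one.

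The photocaged and bolus arms showed little against DMSO. In the Ibuprofen photocaged arm RPS27L rose by 0.20 ± 0.058 (edgeR adjusted p = 0.0337), the only called member where 4.28% of all genes were called and 1.98% were higher. The call was lost in 8 of 27 alternatives, the removal of GC and length trends among them. No member was called in the Ibufenac photocaged arm (median 0.02), where 7.49% of all genes were called, and 6 members had an unadjusted p under 0.05. Removing GC and length trends gave 2 calls, where 9% of all genes were called, and DESeq2 gave 0. In the Ibuprofen bolus arm no member was called (median -0.03, 3 at an unadjusted p under 0.05), where 0.0258% of all genes were called. In the Ibufenac bolus arm none was called either, where 0.0103% of all genes were called. There, however, 78 of 79 members were below 0, with a median of -0.12, and 42 had an unadjusted p under 0.05. DESeq2 called 0 members in either bolus arm, and with no filter on low counts 10 were called in each, all lower.

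The second comparison sets the probe form against the bolus of the same drug. The Ibufenac probe arm exceeded the Ibufenac bolus arm in 55 members and fell below it in none, which is 69.6% of the members, where 11.2% of all genes were called and 5.06% were higher. All 79 members were above 0, with a median of 0.21. The risers comprised 19 of the 32 small-subunit and 36 of the 47 large-subunit genes. RPL12 had 729, 861 and 957 CPM in the probe arm and 577, 641 and 738 CPM in the bolus arm (lowest, median, highest), which overlapped only at the lowest probe and highest bolus library. It was higher by 0.40 ± 0.045 (1.32-fold, edgeR adjusted p = 4.67e-09).

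RPL26 was higher by 0.32 ± 0.049 (edgeR adjusted p = 4.15e-06), with 1093, 1296 and 1419 CPM in the Ibufenac probe arm against 802, 992 and 1298 CPM in the Ibufenac bolus arm. RPS27 was higher by 0.31 ± 0.057 (edgeR adjusted p = 9.58e-05), RPL39L by 0.57 ± 0.116 (0.000442) and RPL36A by 0.29. Of the members fixed by role, RPSA, RPS3, RPS4X, RPS6, RPLP0, RPL3, RPL5, RPL10, RPL11, RPL13A, RPL39 and RPL41 were also higher, between 0.15 and 0.29. RPLP0 was higher by 0.24 ± 0.047 (edgeR adjusted p = 0.000303) and RPL5 by 0.19 ± 0.039 (0.000674). RPS14, RPS19, RPS27A, RPS27L, RPL22, RPLP1 and RPLP2 did not pass, with values between 0.08 and 0.24, and for RPLP1 the 95% interval ran from -0.07 to 0.49.

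With GC and length trends removed 51 members were called, where 12.9% of all genes were called, and 48 were in both sets. The count ran from 44, without the third Ibufenac bolus library at 6 h, to 59 when single libraries were left out. With library totals in place of TMM factors it was 34, all higher, and the median was 0.15. This comparison shares the Ibufenac probe libraries with the comparison against DMSO, and the bolus values lay below DMSO in 78 of 79 members, so the sizes of both cannot be read as separate evidence.

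The Ibufenac photocaged arm exceeded the Ibufenac bolus arm in 23 members and fell below it in none, where 6.05% of all genes were called and 3.26% were higher; the median was 0.13. RPL12 had 676, 790 and 907 CPM in the Ibufenac photocaged arm, against 577, 641 and 738 CPM in the bolus arm, and was higher by 0.25 ± 0.045 (edgeR adjusted p = 0.000167). RPS27, RPL26 and RPS6 were higher by 0.24, 0.21 and 0.20 (edgeR adjusted p = 0.00521, 0.00379 and 0.0043). The count rests on few libraries: it was 9 without the third Ibufenac bolus library at 6 h and 8 without both bolus libraries that stand apart. It also fell to 10 without the first Ibufenac photocaged library at 6 h, to 12 and 13 without the third at 12 h and at 18 h, to 15 without the first at 12 h, to 14 without the second bolus library at 18 h, and to 15 without the third at 12 h.

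For ibuprofen, 3 members were higher in the probe than in the bolus arm, where 3.7% of all genes were called and 1.38% were higher, and none lower, with a median of 0.07. They were RPS27 (0.21 ± 0.057, edgeR adjusted p = 0.022), RPS6 (0.16, 0.0342) and RPL4 (0.15, 0.0275). With GC and length trends removed 20 members were called, where 5.91% of all genes were called. Of all genes 3.44% were called between the Ibuprofen photocaged and bolus arms but no member was (median 0.05), with 4 at an unadjusted edgeR p under 0.05 and 1 call by DESeq2. Between probe and photocaged forms no member was called for either drug. For ibufenac the median was 0.08 with 75 of 79 members above 0, where 2.68% of all genes were called, 16 members had an unadjusted edgeR p under 0.05, and DESeq2 called 3. For ibuprofen it was 0.04, where 0.0982% of all genes were called, 9 members passed an unadjusted 0.05 and 0 passed in DESeq2.

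Ibufenac lacks the methyl group next to the carboxylic acid of ibuprofen, so the drug pair differs by a single named change. The drugs were compared in 3 forms, averaged and at each of 3 times. Averaged over the times, only RPL12 differed, in the probe form: it was higher with ibufenac by 0.16 ± 0.045 (95% interval 0.07 to 0.25, edgeR adjusted p = 0.035), where 2.82% of all genes were called and 1.13% were higher. Its 9 libraries had 729, 861 and 957 CPM in the Ibufenac probe arm, against 698, 764 and 867 CPM in the Ibuprofen probe arm (lowest, median, highest), which overlap. The call was lost in 9 of 27 alternatives, among them library totals without TMM factors and leaving out the third Ibufenac probe library at 12 h.

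No member was called between the drugs in the photocaged form, where 0.0362% of all genes were called, or in the bolus form, where none was. With edgeR 0 members had an unadjusted p under 0.05 in the photocaged form and 27 in the bolus form, and DESeq2 called 0 in both. RPL12 had intervals of -0.00 to 0.18 for photocaged and -0.21 to -0.03 for bolus, and RPS27 of -0.03 to 0.20 and -0.20 to 0.03. For RPL26 the bolus interval ran from -0.26 to -0.07, with an adjusted p of 0.551 in edgeR. These intervals are not adjusted for the number of genes. The median standard error of a member in the averaged comparisons was 0.0537.

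At single times 3 libraries were set against 3, and the median standard error of a member was 0.0929. The largest changes of the members came here, and in several arms they varied with the GC content of the gene. The map of fold changes orders the members by GC to show this.

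**Figure D3:**
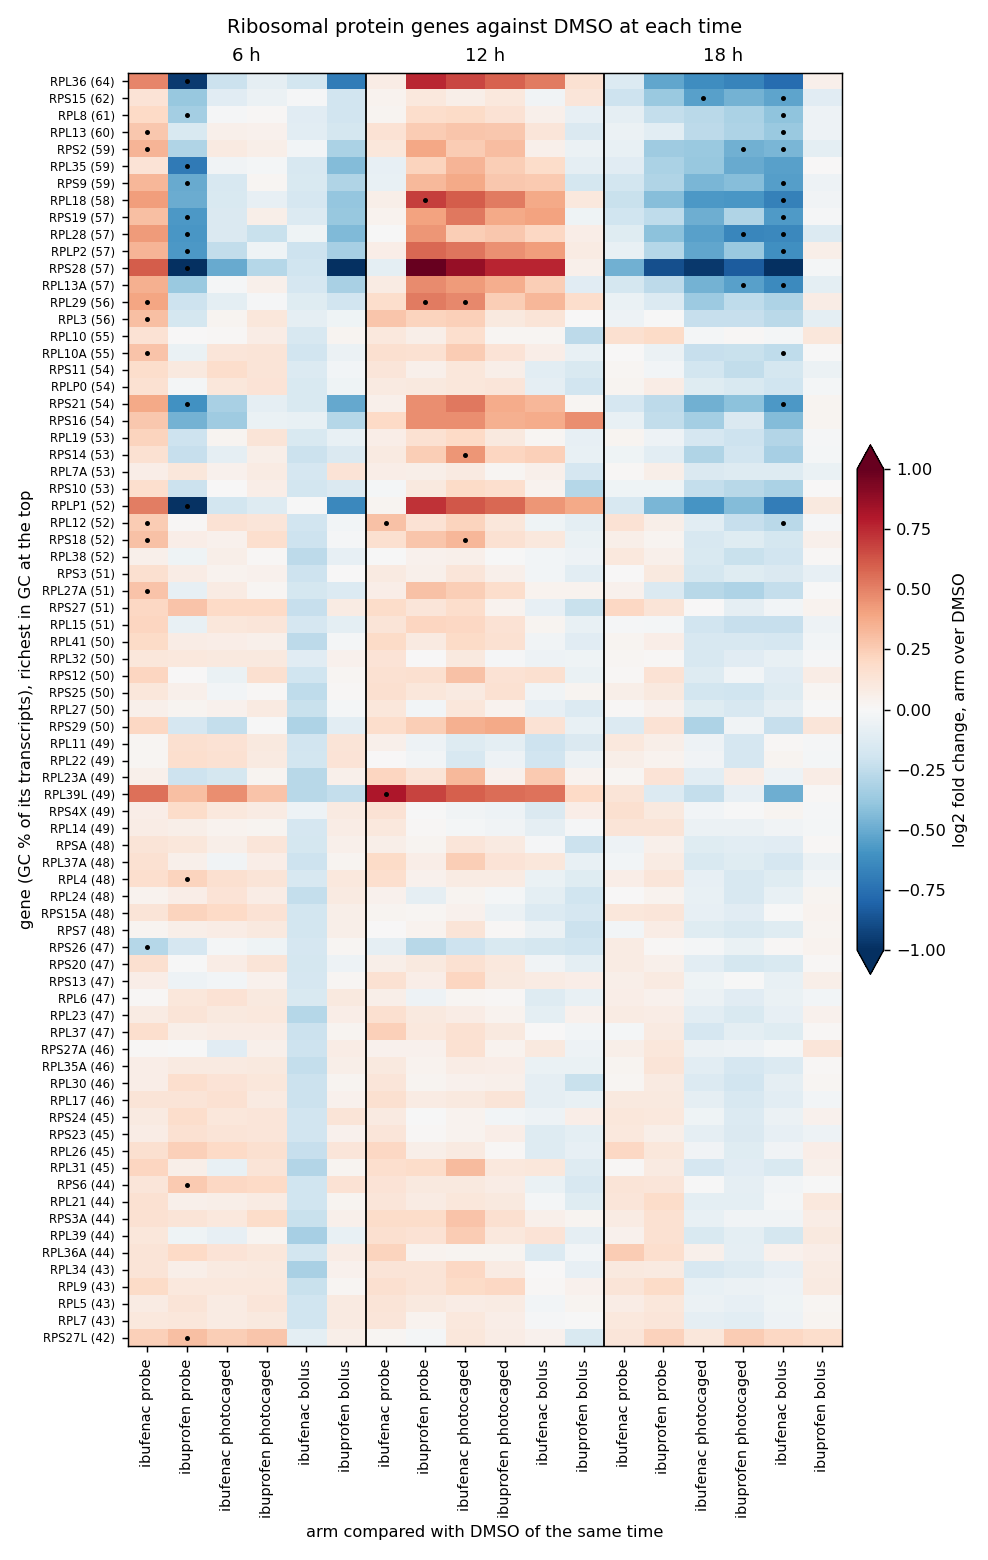
Log2 fold change of the ribosomal protein genes reported here against DMSO at the same time, for 6 arms at 6, 12 and 18 h, with genes ordered from the richest in GC at the top. Dots mark an edgeR adjusted p under 0.05; GC-rich genes such as RPS28 and RPL28 swing down in the Ibuprofen probe arm at 6 h and in the Ibufenac bolus arm at 18 h, while most genes with less GC stay near 0.

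At 6 h the Ibuprofen probe arm had 11 lower and 3 higher members, where 11.4% of all genes were called, 7.82% lower and 3.61% higher. RPS28 fell most. Its libraries had 28.9, 19.5 and 48.2 CPM in the Ibuprofen probe arm at 6 h against 80.2, 133 and 143 CPM in DMSO at 6 h, without overlap, and the fold change was -1.89 ± 0.480 (0.269-fold, edgeR adjusted p = 0.00808). At 12 h RPS28 had 144, 156 and 142 CPM in the Ibuprofen probe arm against 100, 46.3 and 71.3 CPM in DMSO, which is the opposite order, with a fold change of 1.02 ± 0.458 (edgeR adjusted p = 0.275). At 18 h it had 55.5, 80.7 and 116 CPM against 161, 131 and 170 CPM. Other arms were also below DMSO in RPS28 at 6 h, without a call. The Ibuprofen bolus arm had -1.23, the Ibufenac photocaged arm -0.50 and the Ibuprofen photocaged arm -0.29. In the Ibufenac bolus arm all 79 members were below DMSO at 6 h, and the Ibufenac probe arm was above it in RPS28 (0.61).

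RPLP1 of the stalk had 196, 176 and 327 CPM in the Ibuprofen probe arm at 6 h against 390, 481 and 512 CPM in DMSO, also without overlap, and fell by 0.99 on the log2 scale (-0.99 ± 0.243, edgeR adjusted p = 0.00665). RPL36 of the large subunit had 235, 191 and 314 CPM against 388, 511 and 539 CPM in DMSO, with -0.96 ± 0.264 (edgeR adjusted p = 0.0138). In RPS28, RPLP1 and RPL36 every probe library lay below every DMSO library. RPS19, RPL28 and RPLP2 fell by 0.58 each. The risers were RPS27L (0.30), RPS6 (0.26) and RPL4 (0.22), with edgeR adjusted p = 0.0432, 0.0301 and 0.0329.

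Across the 79 genes the fold change at 6 h correlated with GC content at r = -0.68, a description of genes that share the same libraries. At 6 h r was also negative in the Ibuprofen bolus (-0.67), Ibuprofen photocaged (-0.55) and Ibufenac photocaged (-0.50) arms. It was positive in the Ibufenac bolus (0.49) and Ibufenac probe (0.57) arms. The GC content of members ran from 41.8% to 63.6%, and RPS28 has 56.8%, RPL36 63.6% and RPLP1 52.3%. In the Ibuprofen probe arm at 6 h, GC-rich members lay 0.37 below GC-poor ones relative to all libraries on the log2 scale (-0.37), and genes outside the group did likewise (-0.32), while the DMSO libraries at 6 h had 0.06 and 0.07. With GC and length trends removed 6 members fell and 1 rose, where 8.79% of all genes were called. RPS28 then had -1.78 (edgeR adjusted p = 0.006), RPLP1 -1.01 (0.00474) and RPL36 -0.36 (0.0387), and RPL28 and RPLP2 also remained, while the calls of RPS27L, RPS6 and RPL4 ended. With both trends removed, r with GC over the 79 genes was still -0.36. The part of GC in the result was not tested beyond this. The count was 0 without the second Ibuprofen probe library, 2 without the first and 22 without the third, and 3 without either the second or the third DMSO library.

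The Ibufenac probe arm at 6 h went the other way for the GC-rich members. There 8 members rose and 1 fell, where 12.7% of all genes were called. RPL29 of the large subunit had 781, 793 and 817 CPM in the Ibufenac probe arm at 6 h against 563, 614 and 639 CPM in DMSO, without overlap, and rose by 0.40 ± 0.131 (edgeR adjusted p = 0.0342). RPL3 had 755, 731 and 760 CPM against 611, 586 and 624 CPM in DMSO, also without overlap, and rose by 0.30 (edgeR adjusted p = 0.021). RPS2, on the mRNA entry side, rose by 0.34 (0.0324), RPS18, in the head of the small subunit, by 0.29 (0.0263), and RPL12 by 0.26 (0.0207).

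RPS26, which contacts mRNA upstream of the start codon, was the only member that fell in the Ibufenac probe arm at 6 h. It had 215, 189 and 211 CPM in the Ibufenac probe arm against 249, 261 and 237 CPM in DMSO, without overlap, and a fold change of -0.28 ± 0.084 (edgeR adjusted p = 0.0185). RPS26 has no tract at its annotated start, as printed above, and no tract was counted for RPL3 either, which rose. In this arm GC-rich members lay 0.24 above GC-poor ones and other genes 0.20, and r between fold change and GC was 0.57 over the 79 genes. With GC and length trends removed 14 members rose and 1 fell, where 14.1% of all genes were called. Of the 9 calls 8 remained, RPS26 among them with -0.27, and r with GC was still 0.33. The count fell to between 1 and 5 when any single library of either group was left out.

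At 12 h RPL39L and RPL12 rose in the Ibufenac probe arm, where 4.51% of all genes were called. RPL39L had 6.70, 5.41 and 12.9 CPM in the Ibufenac probe arm against 5.55, 4.13 and 4.69 CPM in DMSO, which overlapped, and its fold change was 0.80 ± 0.200 (edgeR adjusted p = 0.0101); without the third probe library it was 0.34 and not called. RPL12 rose by 0.30 ± 0.078 (edgeR adjusted p = 0.017), and without that same library it was not called either. In the Ibuprofen probe arm at 12 h RPL18 (0.69, 0.0285) and RPL29 (0.52, 0.0231) rose, where 1.97% of all genes were called and 0.362% were higher. RPL18 of the large subunit had 588, 597 and 545 CPM in the Ibuprofen probe arm against 408, 314 and 352 CPM in DMSO, without overlap. Leaving out single libraries gave 0 to 3 calls, and DESeq2 gave 9. At 18 h no member was called in either probe arm, where 2.69% of all genes were called for ibufenac and 1.78% for ibuprofen. There 4 and 9 members had an unadjusted edgeR p under 0.05, and DESeq2 called 0 and 1.

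Between the probe arms the drugs differed at 6 h in 27 members, all higher with ibufenac, where 23.6% of all genes were called and 12.9% were higher. RPS28 had 158, 177 and 207 CPM in the Ibufenac probe arm and 28.9, 19.5 and 48.2 CPM in the Ibuprofen probe arm, a fold change of 2.5 ± 0.487 (5.65-fold, 95% interval 1.52 to 3.48, edgeR adjusted p = 0.000152). RPLP1 had 625, 649 and 701 CPM with ibufenac and 196, 176 and 327 CPM with ibuprofen, a change of 1.5 ± 0.246 (edgeR adjusted p = 2e-05). Neither of these genes overlapped between the drugs. RPL36 differed by 1.45 ± 0.266 (edgeR adjusted p = 7.3e-05) and RPL28 by 1.00 (2.88e-05).

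Of the 27 GC-rich members 23 were higher with ibufenac, with a median of 0.64, and of the 27 GC-poor members none, with a median of -0.03. Genes outside the group had medians of 0.34 for the GC-rich and -0.16 for the GC-poor class at the same bounds, 52.5% and 47.7% GC. The r between fold change and GC was 0.70 over 79 genes. It was 0.40 with GC and length trends removed, so the removal left part of the relation in place. With GC and length trends removed 28 members were called, where 14.9% of all genes were called, and 24 of the 27 were among them. RPS28 then differed by 2.33, RPLP1 by 1.52, RPL28 by 0.77 and RPL36 by 0.61, so the value of RPL36 was less than before by more than a factor of 1.5 while that of RPLP1 was not. The part of GC was not tested otherwise. Leaving out single libraries gave 23 to 34 calls, all higher with ibufenac.

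**Figure D4:**
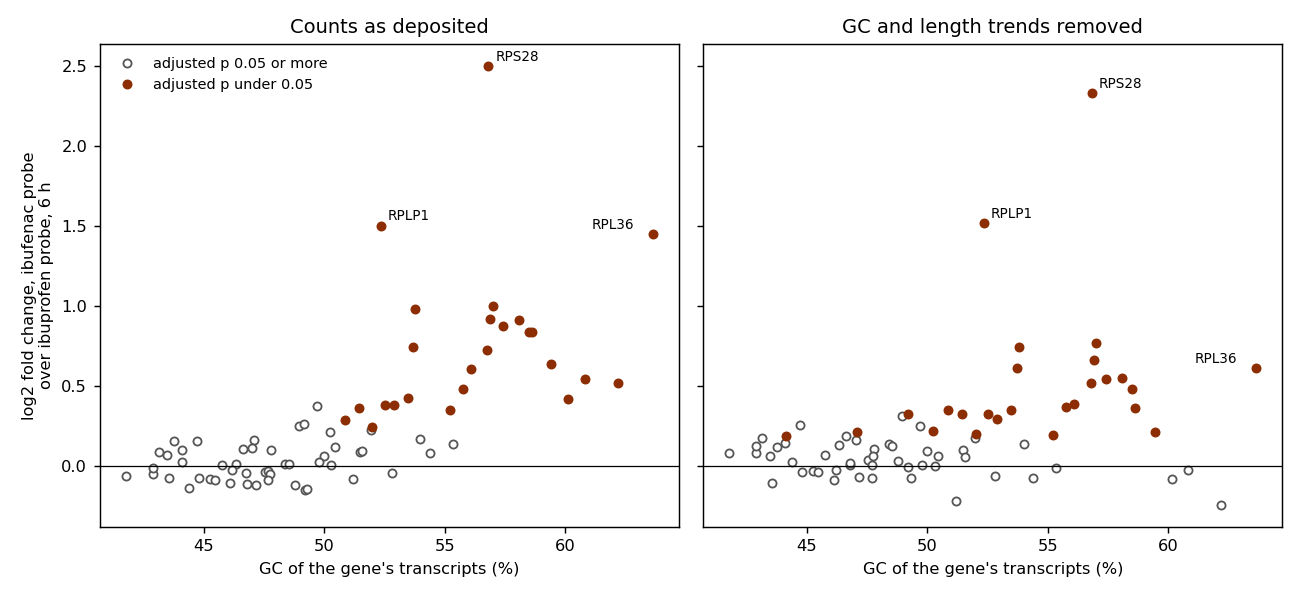
Log2 fold change of the ribosomal protein genes reported here between the Ibufenac and Ibuprofen probe arms at 6 h, against the GC content of their transcripts in percent, as deposited (left) and with GC and length trends removed (right). Filled points have an edgeR adjusted p under 0.05; GC-rich members rise to the right on the left panel, and RPS28 (2.5 and 2.33) and RPLP1 (1.5 and 1.52) hold their value in both. RPLP1, at 52.3% GC, lies below the bound of the GC-rich class. Over all 79 members r with GC is 0.70 as deposited and 0.40 with the trends removed.

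At 12 h no member was called between the probe arms, where 1.92% of all genes were called and 19 members had an unadjusted edgeR p under 0.05, and RPS28 had 55.5, 43.9 and 104 CPM in the Ibufenac probe arm and 144, 156 and 142 CPM in the Ibuprofen probe arm, with a fold change of -1.11 (interval -2.04 to -0.19). At 18 h none was called, nor any other gene, and 1 member had an unadjusted p under 0.05; RPS28 had 139, 104 and 88.2 CPM with ibufenac and 55.5, 80.7 and 116 CPM with ibuprofen, with 0.40 (interval -0.52 to 1.31). The order of the drugs in RPS28 thus turned round between 6 and 12 h, without overlap at either time, though the 12 h difference was not called. Other genes turned too. Outside the group the GC-rich class had medians of 0.34 at 6 h and -0.16 at 12 h, and the GC-poor class -0.16 and 0.06. The r between fold change and GC over the 79 members was 0.70 and -0.65, and with GC and length trends removed 0.40 and -0.37. The part of GC was not tested beyond the removal of GC and length trends, which left RPS28 uncalled at 12 h.

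In the bolus form 14 members were lower with ibufenac at 6 h, where 2.3% of all genes were called. RPS6 had 1903, 1939 and 1482 CPM in the Ibufenac bolus arm at 6 h against 2385, 2219 and 2169 CPM in the Ibuprofen bolus arm, without overlap, with a fold change of -0.35 ± 0.082 (edgeR adjusted p = 0.0246). RPL26 had 1023, 954 and 802 CPM with ibufenac and 1211, 1175 and 1163 CPM with ibuprofen, with -0.35 ± 0.085 (edgeR adjusted p = 0.0248). RPL22, RPL11, RPL5 and RPS27A were lower by 0.32, 0.31, 0.29 and 0.28 on the log2 scale. The third Ibufenac bolus library, which stands apart, was the lowest in RPS6 and RPL26, and without it no member was called. None was called without the first or without the second Ibuprofen bolus library at 6 h either, nor with GC and length trends removed, and the count was 5 without the third Ibuprofen bolus library and 23 without the first Ibufenac bolus library. In the photocaged form no member was called between the drugs at any time, nor was any other gene, and at most 2 members had an unadjusted edgeR p under 0.05.

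The probe and photocaged forms of ibufenac differed at 6 h in 8 higher members and 1 lower, where 7.38% of all genes were called. RPL29 was higher in the probe form by 0.50 ± 0.131 (edgeR adjusted p = 0.0136), with 781, 793 and 817 CPM in the probe and 480, 543 and 673 CPM in the photocaged form, without overlap. RPS21 and RPS16 of the small subunit were higher by 0.70 and 0.63, and RPS26 was lower (-0.26). The count was 0 without the first Ibufenac photocaged library, 1 without the second and 18 without the third, and 2 without either the second or the third Ibufenac probe library. It was 16 without both libraries that stand apart, which are in neither group. No member was called between these forms for ibuprofen at 6 h, where 0.119% of all genes were called and 24 members had an unadjusted edgeR p under 0.05.

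**Figure D5:**
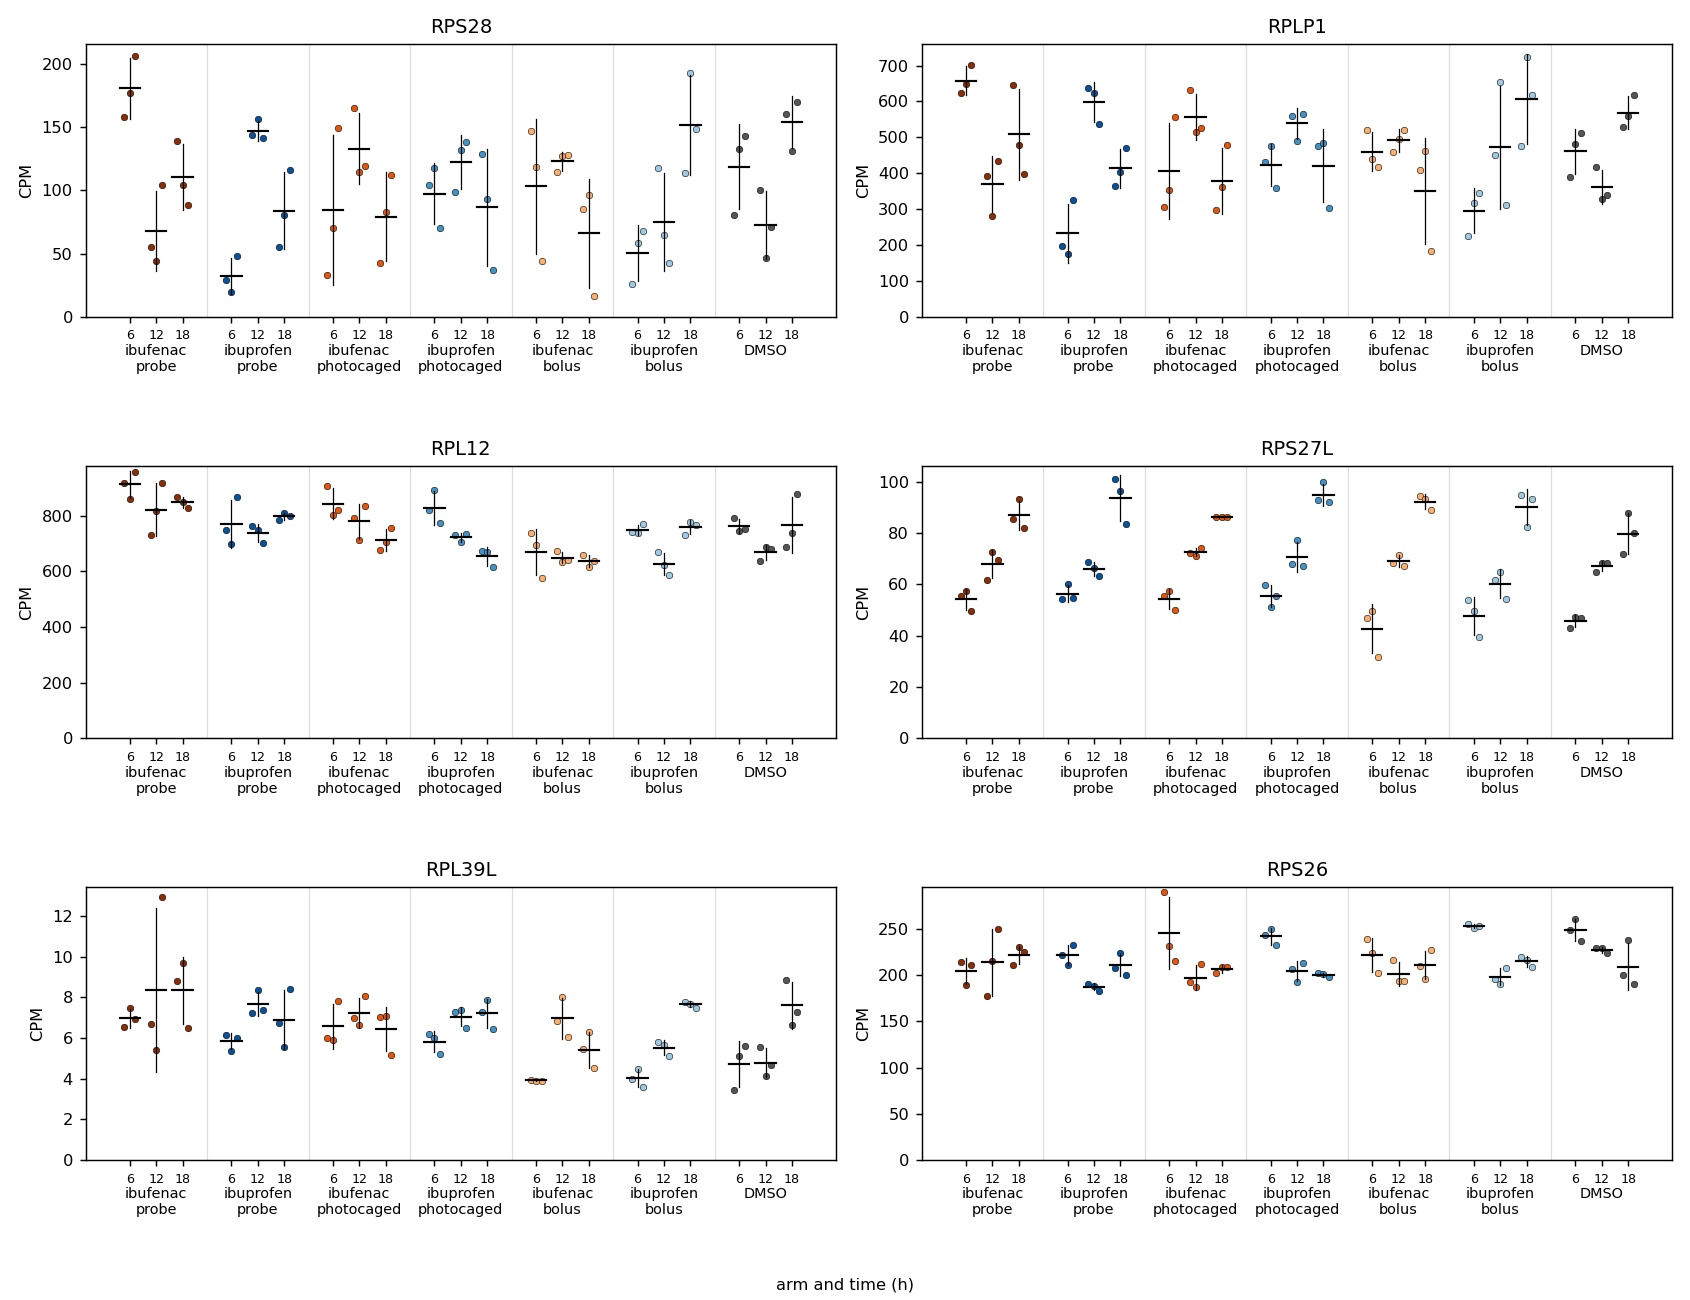
CPM of 6 ribosomal protein genes in each library by arm and time in hours; points are libraries, horizontal bars group means and vertical lines SDs (n = 3). RPS28 and RPLP1 are lowest in the Ibuprofen probe arm at 6 h and highest or nearly so in the Ibufenac probe arm at 6 h, RPL12 is highest in the Ibufenac probe arm at 6 h, and RPS27L climbs with time in every arm.

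In the Ibufenac bolus arm at 18 h 15 members were lower than in DMSO at 18 h, where 5.03% of all genes were called and 2.71% were lower. RPL13A had 1052, 1001 and 732 CPM in the Ibufenac bolus arm against 1307, 1374 and 1638 CPM in DMSO, without overlap, and a fold change of -0.63 (edgeR adjusted p = 0.0135). RPL18 had 394, 408 and 273 CPM against 541, 553 and 623 CPM in DMSO, also without overlap, with -0.68 ± 0.180 (edgeR adjusted p = 0.0242). RPL28 had -0.65. Of the 15, 14 are GC-rich, and r with GC was -0.76 over 79 genes. The count was 0 without the third Ibufenac bolus library, 0 without the third DMSO library and 0 without both libraries that stand apart. It was 10 without the second DMSO library, and 6 with GC and length trends removed, where 1.79% of all genes were called. In that fit r with GC was still -0.39.

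The remaining single times had few calls. In the Ibufenac photocaged arm 4 members rose at 12 h, where 1.58% of all genes were called, RPL29 (0.48), RPS14 (0.44) and RPS18 (0.33) among them. RPS14 had 821, 719 and 798 CPM in the Ibufenac photocaged arm against 602, 521 and 602 CPM in DMSO, without overlap. At 18 h RPS15 of the small subunit fell in that arm (-0.54, edgeR adjusted p = 0.0183), where 2.86% of all genes were called and 1.19% were lower, and with GC and length trends removed it had -0.05 (0.868). In the Ibuprofen photocaged arm at 18 h RPL28 (-0.65), RPL13A (-0.54) and RPS2 (-0.48) fell, where 2.21% of all genes were called and 1.22% were lower. No member was called at 6 h in the Ibufenac photocaged arm, where 3.03% of all genes were called, or in the Ibuprofen photocaged arm (0.992%), with 7 and 4 members at an unadjusted edgeR p under 0.05 and 0 in DESeq2. At 12 h none was called in the Ibuprofen photocaged arm (0.677%), with 14 at an unadjusted p. The Ibuprofen bolus arm had no called member at 6, 12 or 18 h, where 0, 0.0103% and 0.0723% of all genes were called, and 11, 10 and 0 members had an unadjusted p under 0.05. The Ibufenac bolus arm had none at 6 or 12 h, where 0.0258% and 0 were called, with 44 and 10 members at an unadjusted p, and DESeq2 called 0 in each of these. Single libraries moved these counts: at 12 h to between 0 and 2 for the Ibufenac photocaged arm and to 4 for the Ibuprofen bolus arm without its first library, at 6 h to 1 for the Ibufenac photocaged arm without the third of its libraries and to 1 for the Ibufenac bolus arm without the first, and to between 0 and 9 for the Ibufenac photocaged arm at 18 h, and between 0 and 8 for the Ibuprofen photocaged arm at 18 h. Without the third DMSO library at 18 h RPS15, RPL28, RPL13A and RPS2 were not called, nor was RPS15 without the first Ibufenac photocaged library, nor the other 3 genes without the third Ibuprofen photocaged library.

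Averaged over the 7 arms, 36 members were lower and 3 higher at 12 h than at 6 h, where 38.9% of all genes were called and 17.8% were lower, with a member median of -0.08. RPS26 had 177, 196 and 250 CPM at 12 h and 189, 233 and 290 CPM at 6 h (lowest, median, highest of 21 libraries), with a fold change of -0.19 ± 0.032 (edgeR adjusted p = 1.85e-06). RPL14, RPS23 (in the decoding centre) and RPL32 had -0.18 each (edgeR adjusted p = 1.5e-07, 4.24e-06 and 1.22e-07). These are small changes over overlapping ranges. The risers were RPS27L, RPL39L (0.34) and RPLP1 (0.25), the last not called without the second Ibuprofen bolus library at 12 h. With GC and length trends removed 16 members were lower and 6 higher, where 39.4% of all genes were called. Of the 39 calls 17 were among them, and the member median was -0.02. With library totals without TMM factors 11 were lower and 9 higher.

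Between 18 h and 6 h 12 members were higher and 9 lower, where 47.8% of all genes were called, and the median was 0.03. With library totals 23 were higher and 6 lower. With GC and length trends removed 21 were higher and 9 lower, where 49.5% of all genes were called. RPS27L moved most. It had 71.7, 89.0 and 101 CPM at 18 h and 31.7, 51.3 and 60.2 CPM at 6 h (lowest, median, highest of 21), so every 18 h library lay above every 6 h library, and at 12 h it had 54.2, 68.2 and 77.3 CPM. At 18 h RPS27L was higher than at 6 h by 0.81 ± 0.038 (1.76-fold, edgeR adjusted p = 3.39e-24), and at 12 h by 0.42 ± 0.038 (6.88e-13). None of 50 alternatives ended either call. In DMSO alone RPS27L had 43.0, 47.4 and 47.0 CPM at 6 h, 64.7, 68.3 and 68.2 CPM at 12 h and 71.7, 87.8 and 80.0 CPM at 18 h, with 0.80 ± 0.102 between 18 and 6 h (edgeR adjusted p = 3.91e-08).

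RPL39L rose too, by 0.41 ± 0.076 between 18 and 6 h (edgeR adjusted p = 1.13e-05), with 4.53, 7.08 and 9.70 CPM at 18 h and 3.43, 5.58 and 7.83 CPM at 6 h, which overlapped. RPL13A (0.19 ± 0.058, edgeR adjusted p = 0.00557) and RPS21 (0.18, 0.0201) rose, and RPS26 fell (-0.15 ± 0.032, 0.000112), as did RPL10A, RPL6 and RPL14 at -0.10 each. Of the other members fixed by role, RPS19 (0.17), RPL3 (0.11), RPS27 (0.09) and RPL26 (0.09) were higher at 18 h and RPS4X (-0.09) was lower. RPSA, RPL5, RPS6, RPL11 and RPS14 lay between -0.02 and 0.02 and did not pass.

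In DMSO alone 4 members were higher and 1 lower at 18 h than at 6 h, where 17.5% of all genes were called: RPS27L, RPL39L (0.68, edgeR adjusted p = 0.0136), RPL13A (0.43, 0.0416) and RPL3 (0.26) were higher and RPS26 was lower (-0.25, 0.0311). RPS27L alone was called between 12 and 6 h, where 3.82% of all genes were called. Between 18 and 12 h 14 members rose, where 5.27% of all genes were called, RPL18 (0.68), RPL39L (0.66) and RPL13A (0.64) among them. The count between 18 and 12 h was 0 without the third DMSO library at 18 h, and 1 without either the second or the third at 12 h. Between 18 and 6 h it was 1 without the first DMSO library at 6 h, 2 without the second and 3 without the third, and 3 without the third at 18 h. GC-rich DMSO members lay 0.21 above GC-poor ones at 18 h and 0.07 below at 12 h (-0.07), and genes outside the group 0.20 and -0.04; the part of GC was not tested.

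In the test of arm by time, with 12 degrees of freedom, 39 members (49.4%) passed, where 22.8% of all genes were called. RPS2 had the smallest adjusted p, 2.86e-05, and RPL18 (4.49e-05) and RPLP2 (5.59e-05) were also among the smallest, all from edgeR. Of the members fixed by role, RPLP1, RPL13A, RPS19, RPS14, RPL3, RPSA, RPS27A, RPS6 and RPL39L passed too. RPLP0, RPL26, RPL10, RPL22, RPL11, RPS27, RPS27L, RPL41, RPL39, RPL5, RPS3 and RPS4X did not.

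Members varied unequally between groups. The median SD of the group means, each a mean of 3 libraries, was 0.125 on the log2 CPM scale, and the median SD between single libraries of 1 group was 0.118. RPS28 varied most, 0.60 between groups and 0.65 within, RPL36 was also among the most variable (0.37), and RPS13, RPS27A and RPL5 varied least (0.081, 0.085 and 0.091). The group extremes of RPS28 and RPL36 were the same: lowest in the Ibuprofen probe arm at 6 h, with means of 32.2 and 247 CPM, and highest in the Ibufenac probe arm at 6 h, with means of 181 and 673 CPM.

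Neighbouring genes limit what some values mean. Of the members, 28 hold 60 small nucleolar RNA genes inside them and 36 overlap a gene on the other strand. RPS28 overlaps 3 such genes, NDUFA7 and KANK3 among them, the highest with a mean of 42.3 CPM, while RPS28 itself had 32.2 CPM in its lowest group. RPL28 overlaps UBE2S (101 CPM) and RPL36 overlaps LONP1 and MICOS13 (68.3 CPM). The kit was stranded, but the counting strand is not given in the sources used here, so reads of these pairs may not be separated. On the same strand 8 members overlap a protein-coding gene, among them RPL26, RPL36 (HSD11B1L) and RPL36A (RPL36A-HNRNPH2). Strand cannot separate the reads of such pairs. Pseudogenes with ribosomal protein names numbered 1588 and held 0.0565% to 0.103% of a library.

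The rest of the translation apparatus was counted from written lists. Of all genes 5.87% were higher and 7.31% lower in the Ibufenac probe arm than in DMSO, and 3.81% were higher and 4.61% lower in the Ibuprofen probe arm. Among 30 translation factors and related mRNAs with such tracts, 4 were higher and 1 lower in the Ibufenac probe arm than in DMSO (median 0.05), and 5 higher and 2 lower in the Ibuprofen probe arm (median 0.02). EEF1A1, which carries tRNA to the ribosome, rose by 0.17 (edgeR adjusted p = 0.00133) with ibufenac and by 0.18 ± 0.039 (0.00262) with ibuprofen, and TPT1 by 0.14 (0.0157) with ibufenac. Against the Ibufenac bolus arm 11 were higher and none lower in the Ibufenac probe arm (median 0.13), where 5.06% of all genes were higher. Of 12 noncoding hosts of small nucleolar RNAs, 3 were higher and none lower in the Ibufenac probe arm than in DMSO (median 0.13): SNHG32 by 0.37 (4.57e-07), SNHG6 by 0.25 and GAS5 by 0.19 (0.0018).

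Of 42 ribosome biogenesis factors 12 were lower and 1 higher in the Ibufenac probe arm than in DMSO (median -0.12), where 7.31% of all genes were lower and the median of all genes was -0.01, and the other 29 were not called. In the Ibuprofen probe arm 22 were lower and none higher (median -0.18), where 4.61% of all genes were lower. UTP20 (-0.34, edgeR adjusted p = 6.65e-09), NOP16 (-0.32) and NOLC1 (-0.26) fell with ibufenac, and PPAN, NOP16 and MYBBP1A by 0.47 each with ibuprofen. Of 15 subunits and factors of RNA polymerase I 4 were lower and none higher in each probe arm (median -0.08 in both), with POLR1G at -0.35 for ibufenac and -0.42 for ibuprofen. Both probe comparisons share the DMSO libraries. Of 8 dedicated chaperones of ribosomal proteins 1 was lower with ibufenac (BCCIP, -0.32) and 3 with ibuprofen. Averaged over the times, the bolus arms had no call against DMSO in any list.

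Over time 40 of 42 biogenesis factors were lower at 18 h than at 6 h and none higher, where 23.3% of all genes were lower and 24.4% higher, with a median of -0.37, led by LTV1 (-0.55), RRS1 (-0.52) and GNL3 (-0.51), while ribosomal protein genes had a median of 0.03. Of the polymerase I list 13 of 15 were lower (median -0.25). Of 83 mitochondrial ribosomal protein genes, 9 were lower and 2 higher in the Ibufenac probe arm (median -0.03), a share of called genes near that of all genes, 13.2%. There were 9 lower and none higher in the Ibuprofen probe arm (median -0.05), and 41 lower and 7 higher at 18 h than at 6 h (median -0.10). Of 15 mitochondrial genome transcripts none was called in either probe arm. Among 22 regulators of translation and of these mRNAs 4 were lower and 3 higher with the Ibufenac probe, 2 lower and 1 higher with the Ibuprofen probe, and 14 lower and 4 higher at 18 h.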

How the data were processed

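Ribosomal RNA was depleted from total RNA and stranded libraries were sequenced, per the labels' protocols, from 63 samples of HEK293T cells. The authors deposited 2 tables of 58336 genes, one of expected counts without normalization and one of FPKM; for aligner, counter, strand setting and build, each is not given in the sources used here. Of the count values of 1 or more, 22.6% are not whole, and they were rounded. FPKM served for levels and, with the counts, for the transcript lengths used when length trends were removed. Sample titles gave the group and replicate, and the number in each sample description matched it to its column. Current symbols were matched for 57754 genes, GENCODE 29 gave 462 more, and 120 had none. GENCODE 29 (GRCh38) also gave GC content and overlaps. Lengths were worked out from the deposited counts and FPKM, as the median over libraries.

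In R 4.3.3, edgeR 4.0.16 (filterByExpr with a minimum count of 10, TMM factors of 0.909 to 1.11, quasi-likelihood fit over 21 groups, 42 residual and 8.18 prior degrees of freedom) tested 19352 genes. Tests were two-sided, with Benjamini-Hochberg adjustment over all tested genes within each of 17 averaged comparisons, 33 at single times, 3 of DMSO over time and 1 interaction, at 0.05. Intervals are 95% and not adjusted. CPM are scaled by TMM factors. The script was tested on simulated data. Alternatives were DESeq2 1.42.0, RLE factors, library totals, TMM over nuclear protein-coding genes, no filter, a replicate block, leaving out each library, GC and length trends removed as offsets, and only the arms compared; leaving out both libraries that stand apart, and leaving out single libraries from arm pairs at 1 time and from DMSO over time, were chosen after seeing the data. Python 3.11.15 with pandas 2.3.3 made the level tables.

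Members and lists were chosen with earlier results of these data known. Named genes are 22 fixed by role; up to 4 called members with the most positive and 4 with the most negative change in each averaged and each single-time DMSO comparison; the 4 smallest interaction p-values; the 5 highest and lowest levels; the 3 most and least variable; and up to 3 called genes of each list. Some members that this rule names are not reported here. Same-numbered replicates did not deviate together on average, with a mean correlation of 0.0004 over 630 pairs and a range from -0.607 to 0.647. Numbers were therefore taken only as names of libraries, and pairing within a single time or arm was not examined. The lowest chi-square per gene among 63 pairs within groups was 5.75, and none was a duplicate.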

Additional observations from a re-analysis of the deposited data

Results flagged for a closer look

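The effect of the arms on the members differed between times beyond the spread of replicates, by a test of the arm by time interaction itself in edgeR: 39 of 79 members passed, where 22.8% of all genes were called. Among the smallest adjusted p-values were 2.86e-05 for RPS2, 4.49e-05 for RPL18 and 5.59e-05 for RPLP2. RPLP2, for example, had a log2 fold change against DMSO of -0.58 in the Ibuprofen probe arm at 6 h, 0.57 at 12 h and -0.28 at 18 h, and of 0.34, 0.06 and -0.08 in the Ibufenac probe arm at these times. The GC gap of the same libraries between GC-rich and GC-poor genes outside the group was -0.32, 0.16 and -0.06 in the Ibuprofen probe arm and 0.20, -0.07 and 0.04 in the Ibufenac probe arm at these times. The part of this gap in the interaction was not tested beyond a refit with GC and length trends removed.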

How the results depend on the processing

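None of 64 results for single genes turned round under any alternative run. Of the medians over members, 3 near 0 changed sign: Ibufenac photocaged against DMSO had -0.0053 (0.0184 with all libraries) and Ibuprofen photocaged against DMSO -0.0195 (0.0054), both without the first DMSO library at 18 h, and Ibufenac over Ibuprofen photocaged had -0.0033 (0.0136) without the third Ibuprofen photocaged library at 18 h. Of the 64 results 26 were ended by no alternative and 9 were ended by removing GC and length trends. Values below are counts of called members, and where no cause is named the cause was not tested. Against DMSO, the Ibufenac probe count of 14 became 23 with DESeq2, 25 with no filter on low counts, 23 without both libraries that stand apart, and 7 to 29 without single libraries. The Ibuprofen probe count of 4 became 10 with DESeq2, 2 with GC and length trends removed, 8 with TMM over nuclear protein-coding genes, 10 with library totals, 20 with no filter, 10 with only the arms compared, 10 without the libraries apart, and 0 to 15 without single libraries. For the Ibufenac photocaged arm 0 became 2 with GC and length trends removed, 2 with no filter, 1 with only the arms compared, 1 without the libraries apart and 0 to 2 without single libraries. For the Ibuprofen photocaged arm 1 became 0 with GC and length trends removed, 2 with no filter and 0 to 1 without single libraries. With no filter 10 were called in each bolus arm.

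Between arms, Ibufenac probe over bolus gave 34 with library totals and 44 to 59 without single libraries. Ibufenac photocaged over bolus gave 11 with library totals, 36 with no filter, 8 with only the arms compared, 8 without the libraries apart and 9 to 29 without single libraries. Ibufenac probe over photocaged gave 3 with DESeq2, 3 with GC and length trends removed, 1 with RLE factors, 2 with TMM over protein-coding genes, 14 with no filter, 1 without the libraries apart and 0 to 2 without single libraries. Ibufenac over ibuprofen gave, for probes, 5 with DESeq2, 3 with RLE, 2 with TMM over protein-coding genes, 21 with no filter, 4 with only the arms compared, 5 without the libraries apart and 0 to 7 without single libraries, and for bolus 3 with no filter. Ibuprofen photocaged over bolus gave 1 with DESeq2, 1 with GC and length trends removed, 2 with no filter, 1 without the libraries apart and 0 to 1 without single libraries. Ibuprofen probe over bolus gave 20 with GC and length trends removed, 11 with no filter, 6 with only the arms compared, 5 without the libraries apart and 0 to 8 without single libraries. Ibuprofen probe over photocaged gave 5 with no filter.

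Over time, 12 h against 6 h gave 22 with GC and length trends removed, 20 with library totals and 35 to 49 without single libraries. The comparison of 18 h with 6 h gave 35 with no filter and 16 to 24 without single libraries. The interaction gave 67 with no filter and 34 to 47 without single libraries. The median share of the members was 8.49% of nuclear protein-coding counts, and the SD of log2 FPKM was 1.77 over all rule symbols above 0, against 1.28 over the members. With a replicate block the counts were 13 for the Ibufenac probe and 5 for the Ibuprofen probe against DMSO, 55 for Ibufenac probe over bolus, 38 and 21 over time and 40 for the interaction. The only count against DMSO that moved by over 1.5 times with the block was the Ibufenac photocaged arm at 12 h, which gave 2 against 4. Replicate numbers were not taken to pair libraries, since same-numbered ones did not deviate together on average.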
